A study of Homo sapiens with 12 samples.

Results

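Extracellular proteolysis by matrix metalloproteinases (MMPs) and the plasminogen activator system was followed through 9 genes in 2 established lines of human gastric cancer cells, AGS and MKN45, after overexpression of ESRRG (estrogen-related receptor gamma), a nuclear receptor without a known natural ligand. The genes encode the secreted proteases MMP1, MMP7 and MMP10, the membrane-anchored proteases MMP14 and MMP15, the inhibitors TIMP1 and TIMP2, the protease PLAU and its receptor PLAUR. All probes that the platform annotation assigns to these genes were taken, which gave 13 of the 47323 probes and 9 of the 20046 genes. The genes were chosen from results of these same arrays, so their levels and differences are given as a description, with no p-value. Where their calls are counted, nothing is read from the counts. RNA was measured on 12 Illumina BeadChip arrays, with 3 arrays in each of 4 groups, ESRRG OE and control samples of AGS and of MKN45. Both groups of a line received a lentiviral vector and were harvested 3 days later. The ESRRG OE vector carried the full-length ESRRG cDNA behind the EF1 promoter, a promoter active in most cell types. Each line stands for 1 tumour. Neither the labels nor the methods state if a group's 3 samples were separate cultures. Errors and p-values thus cover the spread between these samples alone, and that spread may be technical.

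MMPs are zinc-dependent endopeptidases that cleave collagens, laminins, fibronectin and many cell-surface proteins. They are made as inactive zymogens, are opened by other proteases such as plasmin, and are held in check by the TIMPs, which bind the active site. PLAU, the urokinase-type plasminogen activator, turns plasminogen into plasmin, and PLAUR holds PLAU at the cell surface. In the stomach these enzymes are known from the invasive front of tumours and from mucosal repair. The promoters of several MMP genes and of PLAUR are known for sites of AP-1, the dimer of FOS and JUN family proteins, and for ETS sites.

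The promoters of the RefSeq annotation (build GRCh38.p14) matched 7 of the 9 genes, namely MMP7, MMP10, MMP14, MMP15, TIMP1, PLAU and PLAUR. In the 250 bases before the start, the AP-1 letters TGANTCA, searched on both strands, stood in the MMP7, MMP10 and PLAUR promoters, once in each, and in 6.57% of all 35116 promoters. The distance from the first of these letters to the start was 67 bases in MMP7, 67 bases in MMP10 and 186 bases in PLAUR. The ETS letters AGGAAG, on both strands, stood in the MMP7 promoter at 2 positions, in those of TIMP1 and PLAUR at 1 position each, and in 28.7% of all promoters. The letters AAGGTCA, the half-site that estrogen-related receptors are known to bind, stood in none of the 7 promoters on either strand, against 3.44% of all promoters. These are matches of letters and not measured binding, and no match says only that the letters are not in this window. The stretches around the AP-1 letters of MMP7, MMP10 and PLAUR are printed with those letters in capitals. The promoters with these letters belong to MMP10 and PLAUR, which were higher in ESRRG OE samples (PLAUR on its 2 brighter probes), and to MMP7, which was not. A stretch of MMP15, which was higher and has none of the searched letters in its 250 bases, stands beside them. Whether the letters bear on the levels was not tested.
MMP7 promoter, chr11:102530748-102530827, minus strand, 80 to 1 bases before the start: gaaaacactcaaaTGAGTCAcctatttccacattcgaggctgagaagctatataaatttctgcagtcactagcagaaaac
MMP10 promoter, chr11:102780629-102780708, minus strand, 80 to 1 bases before the start: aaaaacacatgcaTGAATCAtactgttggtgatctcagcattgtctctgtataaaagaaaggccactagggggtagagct
PLAUR promoter, chr19:43670289-43670368, minus strand, 199 to 120 bases before the start: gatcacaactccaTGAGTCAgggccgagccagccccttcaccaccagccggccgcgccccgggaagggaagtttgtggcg
MMP15 promoter, chr16:58025674-58025753, plus strand, 80 to 1 bases before the start: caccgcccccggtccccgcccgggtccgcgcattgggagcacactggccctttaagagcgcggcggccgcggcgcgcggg

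The labels could not be checked through ESRRG itself. Of its 3 probes, 2 were not detected on any array, and the remaining one (ILMN_1661994) was at 6.90 ± 0.19 log2 units in ESRRG OE and 7.27 ± 0.10 in control AGS samples (SD, n = 3 each). That probe was detected on 1 ESRRG OE and 3 control arrays of AGS, and its values did not overlap. In MKN45 it was at 6.94 ± 0.09 in ESRRG OE and 6.91 ± 0.09 in control samples (SD, n = 3 each) and was detected on 1 array of each group. Whether these probes lie within the introduced cDNA is not known here, so they check nothing, and the groups are called by their labels. All 7 gastric epithelial markers (EPCAM, KRT8, KRT18, KRT19, CDH1, CLDN7, ELF3) were detected on all 12 arrays, while the leukocyte markers PTPRC, CD3E and CD14 were detected on none. Of the 3 endothelial markers, VWF and CDH5 were detected on none and PECAM1 on 1 array, in MKN45. The mean level of the epithelial list was 11.63 to 11.73 log2 units on ESRRG OE arrays and 11.39 to 11.46 on control arrays of AGS, and in MKN45 11.45 to 11.55 on ESRRG OE arrays and 11.44 to 11.53 on control arrays. Its members moved apart. ELF3 averaged 12.13 in ESRRG OE and 10.885 in control AGS samples, and 11.485 in ESRRG OE and 10.73 in control MKN45 samples. KRT8 averaged 12.005 in ESRRG OE and 12.85 in control AGS samples, and 11.98 in ESRRG OE and 12.795 in control MKN45 samples. CLDN7 averaged 12.81 in ESRRG OE and 11.54 in control AGS samples, and KRT19 12.73 in ESRRG OE and 13.35 in control MKN45 samples. The part of these markers in the results below was not tested. Of the 6 fibroblast markers, COL1A1 was detected on 10 arrays, COL1A2 on 1 and the other 4 on none, and CD68 and LYZ of the leukocyte list were detected on all 12. Between 18795 and 20378 probes were detected on the AGS arrays and between 19465 and 20397 on the MKN45 arrays.

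Levels are log2 intensities after quantile normalization over the 12 arrays, on which each array's median was 6.889, and a probe counted as detected where its detection p-value was under 0.05. Differences are ESRRG OE minus control on this scale. The SE of a gene's brightest probe comes from the limma fit over all genes, and that of any other probe from its own spread. Probes near the background understate folds.

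MMP1, the interstitial collagenase, was higher in ESRRG OE samples of both lines and was the member whose level differed most between the lines. In AGS it was at 11.47, 11.47 and 11.58 log2 units in ESRRG OE samples, against 10.30, 10.20 and 10.20 in control samples. The difference of 1.28 (SE 0.08) was a 2.43-fold higher level, and the groups did not overlap. In MKN45 it was at 9.30, 9.61 and 9.40 log2 units in ESRRG OE samples, against 7.77, 7.96 and 7.73 in control samples, a difference of 1.62 (SE 0.10) or 3.07-fold. Its 4 groups were fully apart, in the order AGS ESRRG OE, AGS control, MKN45 ESRRG OE and MKN45 control, so that MKN45 cells with ESRRG OE were still below AGS control cells. MKN45 samples were 4.20-fold below AGS samples under ESRRG OE and 5.33-fold below them in controls. By the size of the difference MMP1 stood at place 185 from the top among 10920 genes tested in AGS, and at place 54 among 11240 in MKN45.

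MMP10, stromelysin-2, which can open the zymogens of other MMPs, had the largest difference of the 9 genes in AGS. It was at 8.96, 8.97 and 9.01 log2 units in AGS ESRRG OE samples, against 6.95, 6.78 and 6.94 in AGS control samples, where it was not detected on any of the 3 arrays. The ESRRG OE mean was therefore at least 3.93-fold higher, taken against the lowest detected level of each control array. The MKN45 values were 7.92, 7.94 and 7.83 log2 units in ESRRG OE samples, against 7.20, 7.29 and 7.14 in control samples, a difference of 0.68 (SE 0.08) or 1.61-fold. The AGS ESRRG OE group was highest, then came MKN45 ESRRG OE and MKN45 control, with ranges apart, and the AGS control group has only a bound. The sizes in the 2 lines are not set against each other for that reason. With background correction by neqc, the difference in MKN45 was 1.40 (2.64-fold).

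MMP7, matrilysin, a small MMP that lacks the hemopexin domain and is made mainly by epithelial cells, was not higher in ESRRG OE samples on either of its 2 probes. On the brighter probe (ILMN_1685403) it was at 7.02, 7.11 and 7.001 log2 units in AGS ESRRG OE samples, against 7.34, 7.24 and 7.30 in AGS control samples. This difference of -0.25 (SE 0.08) left the groups apart. In MKN45 the same probe was at 7.40, 7.35 and 7.32 in ESRRG OE samples, against 7.60, 7.72 and 7.31 in control samples, a difference of -0.19 (SE 0.10) with overlapping groups. The other probe (ILMN_2192072) had the reverse pattern of overlap. It was at 7.11, 7.08 and 7.002 in AGS ESRRG OE samples, against 7.19, 7.11 and 7.19 in AGS control samples (difference -0.10, SE 0.04, overlapping). Its MKN45 values were 7.33, 7.33 and 7.34 in ESRRG OE samples, against 7.51, 7.86 and 7.52 in control samples (difference -0.30, SE 0.12, apart). Both probes are listed under the same RefSeq transcript, so which line had the clearer separation depended on the probe, while the sign was negative in both lines on both. Both probes lay near the background. With background correction by neqc, the brighter probe differed by -0.70 in AGS and -0.38 in MKN45. The other probe then differed by -0.29 in AGS and -0.62 in MKN45.

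MMP1, MMP7 and MMP10 lie in 1 row of 9 MMP genes on chromosome 11, in the order MMP7, MMP20, MMP27, MMP8, MMP10, MMP1, MMP3, MMP12 and MMP13. MMP10 and MMP1 are neighbours in it. These 3 genes were the ones detected on 3 or more arrays. MMP3, stromelysin-1, on the other side of MMP1, was detected on 1 array, and MMP20, MMP27, MMP8, MMP12 and MMP13 were detected on none. The higher levels of MMP1 and MMP10 in ESRRG OE samples were thus not shared by MMP7 at the end of the row, and the remaining genes of the row were too dim to compare.

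**Figure D1:**
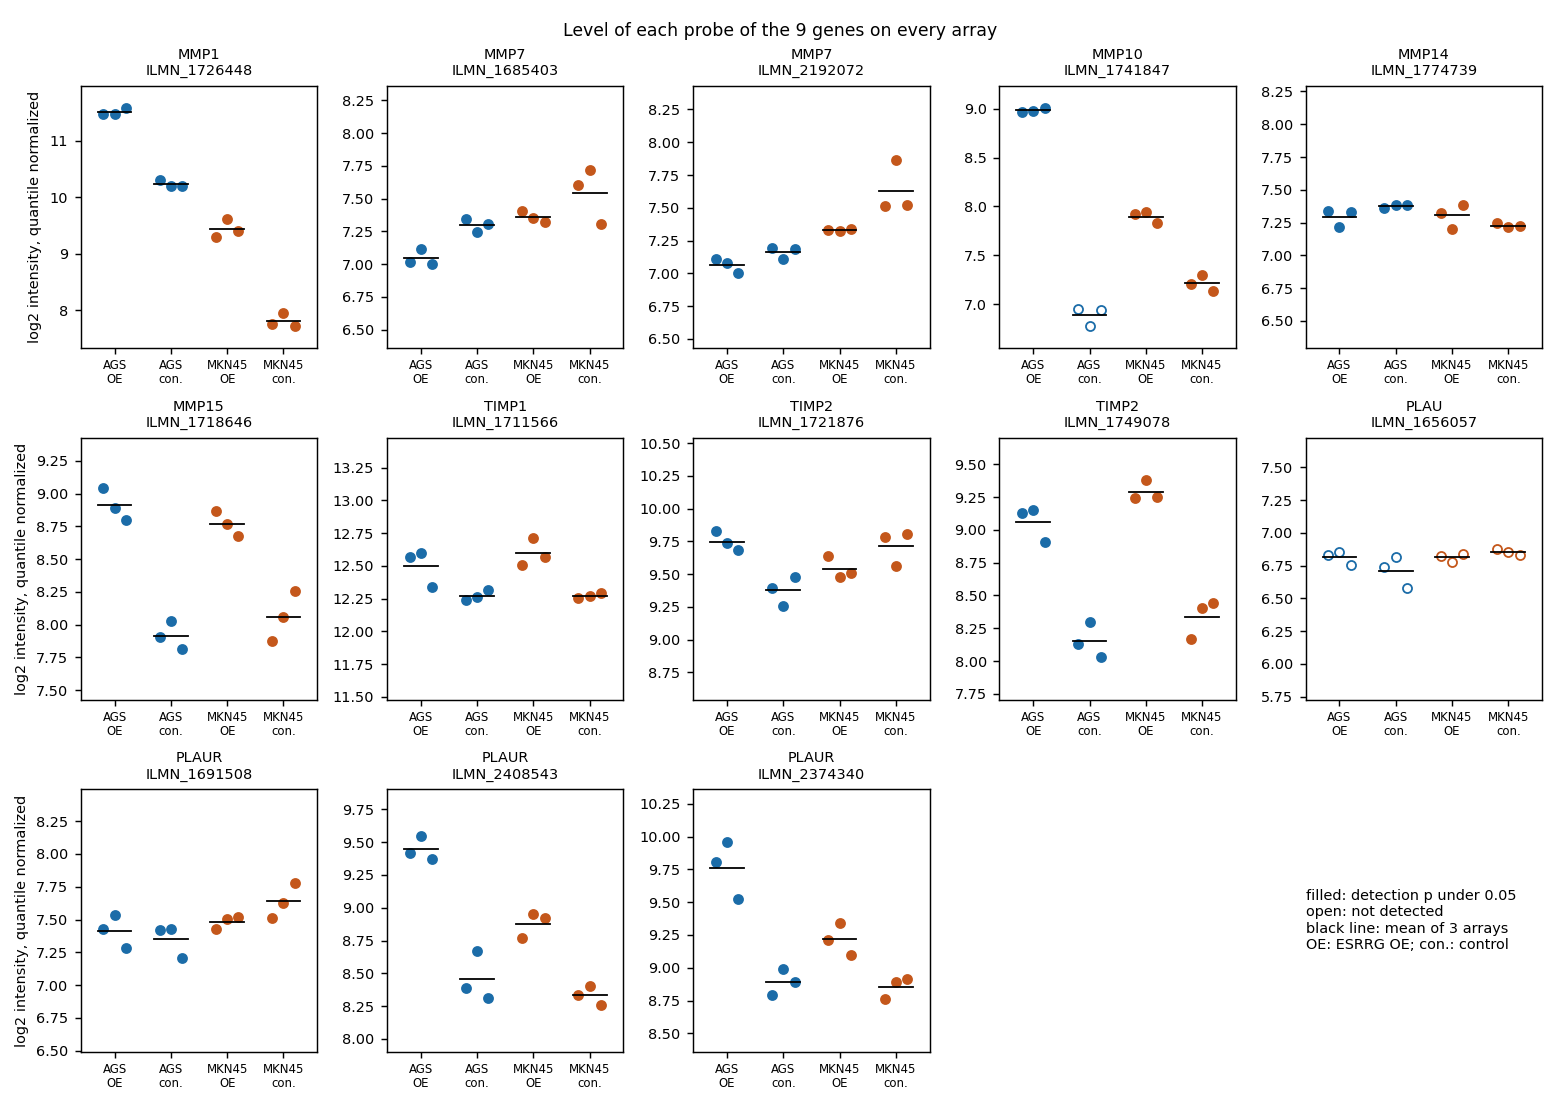
Level of each of the 13 probes on every array, in log2 intensity after quantile normalization, with 1 panel per probe and the 4 groups along the x axis (ESRRG OE left of control in each line). Filled points were detected, open points were not, and black lines are means of 3 arrays. MMP1 has 4 separate groups, MMP10 is open in AGS controls alone, MMP15 has its ESRRG OE groups above both control groups, and PLAU is open on all 12 arrays.

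The membrane-anchored proteases differed from each other. MMP15, the membrane type 2 MMP, was at 9.04, 8.89 and 8.80 log2 units in AGS ESRRG OE samples, against 7.90, 8.03 and 7.81 in AGS control samples, a difference of 0.99 (SE 0.09) or 1.99-fold. In MKN45 it was at 8.87, 8.77 and 8.67 in ESRRG OE samples, against 7.87, 8.05 and 8.26 in control samples, a difference of 0.71 (SE 0.10) or 1.63-fold. Every ESRRG OE array of either line was above every control array of either line. The ESRRG OE groups of the 2 lines overlapped each other, as did the control groups, so the level of MMP15 separated by vector and not by line.

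MMP14, the membrane type 1 MMP, which activates the MMP2 zymogen, stayed within a narrow range, from 7.20 to 7.39 log2 units over the 12 arrays. In AGS it was at 7.34, 7.22 and 7.33 in ESRRG OE samples, against 7.36, 7.38 and 7.38 in control samples, a difference of -0.08 (SE 0.08), with ranges that only just did not overlap. With scaling of the arrays to one median instead of quantile normalization, this difference was 0.02. MKN45 samples had 7.33, 7.20 and 7.39 in ESRRG OE, against 7.24, 7.21 and 7.22 in control, and overlapped (difference 0.08, SE 0.08). The probe lay near the background, and with neqc the differences were -0.19 in AGS and 0.19 in MKN45.

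Both inhibitors were detected on all 12 arrays. TIMP1, which binds most secreted MMPs, was higher in ESRRG OE samples of both lines by small steps. It was at 12.57, 12.60 and 12.34 log2 units in AGS ESRRG OE samples, against 12.24, 12.26 and 12.31 in AGS control samples (difference 0.23, SE 0.09, 1.17-fold). The MKN45 values were 12.51, 12.72 and 12.57 in ESRRG OE samples, against 12.25, 12.27 and 12.29 in control samples (difference 0.33, SE 0.08, 1.25-fold). Neither line had overlapping groups, but in AGS the gap was between 12.34 and 12.31.

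TIMP2, which inhibits MMPs and also takes part in the activation of the MMP2 zymogen by MMP14, gave different answers on its 2 probes. On the brighter probe (ILMN_1721876) AGS samples were at 9.83, 9.74 and 9.68 log2 units with ESRRG OE, against 9.39, 9.26 and 9.48 in control (difference 0.37, SE 0.09, apart). The same probe in MKN45 was at 9.64, 9.48 and 9.51 in ESRRG OE samples, against 9.79, 9.56 and 9.81 in control samples (difference -0.18, SE 0.09, overlapping). This difference became 0.15 when arrays were scaled to one median, and 0.39 when the probes were averaged. The dimmer probe (ILMN_1749078) was at 9.13, 9.15 and 8.91 in AGS ESRRG OE samples, against 8.13, 8.30 and 8.03 in AGS control samples, a difference of 0.91 (SE 0.11) or 1.88-fold. In MKN45 that probe was at 9.25, 9.38 and 9.25 in ESRRG OE samples, against 8.17, 8.40 and 8.45 in control samples, a difference of 0.95 (SE 0.10) or 1.94-fold. Both probes are listed under 1 RefSeq transcript, and only in MKN45 did they disagree in sign.

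PLAU was not detected on any of the 12 arrays. Its values lay between 6.58 and 6.88 log2 units, and no fold is given. A detection p-value at or above 0.05 bounds the level and does not show that the transcript is absent.

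PLAUR was higher in ESRRG OE samples of both lines on 2 of its 3 probes. On the brightest (ILMN_2374340) it was at 9.81, 9.96 and 9.52 log2 units in AGS ESRRG OE samples, against 8.79, 8.99 and 8.89 in AGS control samples, a difference of 0.87 (SE 0.11) or 1.83-fold. In MKN45 it was at 9.21, 9.34 and 9.10 in ESRRG OE samples, against 8.76, 8.89 and 8.91 in control samples, a difference of 0.36 (SE 0.09) or 1.29-fold. The control groups of the lines overlapped, while the ESRRG OE groups did not, and the difference in AGS exceeded that in MKN45 by 0.51 (SE 0.14). A second probe (ILMN_2408543), listed under another transcript, differed by 0.99 (SE 0.12) in AGS and by 0.55 (SE 0.07) in MKN45, with the groups apart in both. The third (ILMN_1691508), listed under the same transcript as the brightest, overlapped in both lines (0.06, SE 0.10 in AGS and -0.15, SE 0.08 in MKN45). Scaled to one median, its MKN45 difference was 0.00. Its level was 7.21 to 7.78 log2 units over the 12 arrays, all detected. This was near the background, and with neqc the differences were 0.14 in AGS and -0.30 in MKN45.

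**Figure D2:**
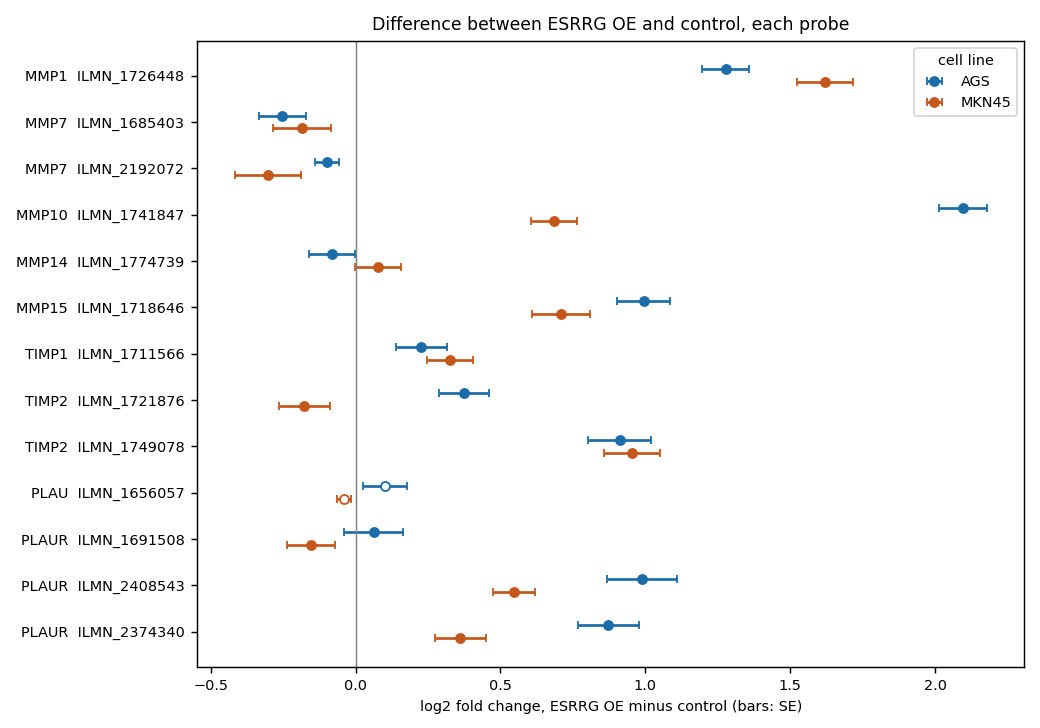
Difference of each probe between ESRRG OE and control samples (x axis, log2 fold change, bars are SE) in AGS (blue) and MKN45 (orange), with 3 arrays per group. Open points are probes not detected on any array of the line. MMP10 in AGS, drawn at its measured 2.10 although its controls were not detected there, lies farthest to the right, MMP1 follows in both lines (1.28 and 1.62), and the 2 TIMP2 probes lie on opposite sides of 0 in MKN45.

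Of the 9 genes, 8 passed the filter on dim probes in each line (detected on at least 3 of 6 arrays) and PLAU passed in neither. In AGS 7 of these 8 were past the threshold of limma (Benjamini-Hochberg adjusted p under 0.05 over all genes), 6 higher and 1 lower, beside 51.3% of all 10920 genes tested, with 24.1% higher and 27.2% lower. Values did not overlap for 8 of the 8, beside 57.2% of all genes. In MKN45 5 of the 8 were past the threshold, all higher, beside 41.0% of all 11240 genes, with 20.1% higher and 20.9% lower. Values did not overlap for 5 of the 8 there, beside 50.2% of all genes. The median difference of the 8 genes was 0.62 in AGS and 0.34 in MKN45, beside -0.02 and -0.01 over all genes tested. MMP10 passed the filter in AGS only through the ESRRG OE group. It is among the AGS genes counted as higher and as not overlapping. Since the genes were chosen from these arrays, nothing is read from these counts and medians.

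Under ESRRG OE, MKN45 was below AGS for MMP1, MMP10, TIMP2 on its brighter probe and PLAUR on its 2 brighter probes, and above AGS for MMP7 on both probes and TIMP2 on its dimmer probe, with ranges apart. MMP10 was 2.12-fold lower in MKN45 than in AGS under ESRRG OE, while in controls it was detected on 3 of 3 MKN45 arrays and on 0 of 3 AGS arrays. For MMP15 and TIMP1 the ranges of the lines overlapped under ESRRG OE as well as in controls.

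The genes with the pattern most like a member's were sought among 807 genes detected on at least 3 arrays whose group means spanned over 1 log2 unit. Likeness was the root mean square difference over the 12 arrays after each gene was centred on its own mean, for the 2 members whose group means spanned over 1 log2 unit. Nearest to MMP10 were INHBE, an inhibin beta subunit, at 0.19 log2 units, and PSAT1, an enzyme of serine synthesis, at 0.20. INHBE had means of 9.11 in ESRRG OE and 6.98 in control AGS samples, and 7.93 in ESRRG OE and 7.01 in control MKN45 samples. These control means lay near the lowest detected levels of the arrays, and MMP10 was not detected in AGS controls. The part of the background in this likeness was not tested. PSAT1 was well above the background, at 10.56 in control AGS and 10.78 in control MKN45 samples. No gene came as near to MMP1, for which APOA2, an apolipoprotein of HDL, was at 0.52 and RASIP1, a RAS-interacting protein, at 0.60. APOA2 had means of 11.87 in ESRRG OE and 10.75 in control AGS samples, and 10.53 in ESRRG OE and 9.46 in control MKN45 samples.

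The other genes of extracellular proteolysis were taken from lists of 67 genes, of which 31 passed the filter in AGS and 32 in MKN45. These lists and those further below were chosen with earlier results of these data known. Their counts, shares and medians are therefore a description, and nothing is read from them. In AGS 14 rose and 4 fell, 58.1% of those tested beside 51.3% of all genes, with a median difference of 0.20. In MKN45 12 rose and 6 fell, 56.2% beside 41.0% of all genes, with a median of 0.07. The rises of both lines include MMP9 and KLK11, which passed the filter only through the ESRRG OE group. Scaled to one median, 17 rose and 1 fell in AGS, and 14 rose and 1 fell in MKN45, so the number of falls depended on the scaling.

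Among the other MMPs, 3 of 18 were bright enough to test in each line. MMP9, gelatinase B, was detected on all ESRRG OE arrays and on no control array of either line, so it passed the filter only through the ESRRG OE group. Its ESRRG OE level was at least 1.15-fold higher in AGS (adjusted p = 5.04e-05 from limma) and at least 1.31-fold higher in MKN45 (adjusted p = 9.32e-06). These p-values belong to the fit on the measured values, undetected controls included, and do not test the bounds. MMP24, a membrane-type MMP, fell in both (AGS -0.28, adjusted p = 0.0145 from limma, MKN45 -0.30, adjusted p = 0.0228), and with scaling to one median neither fall passed (adjusted p = 0.339 and 0.141). The AGS call was also lost without ESRRG OE replicate 1 (adjusted p = 0.0803) or control replicate 3 (0.0501), and the MKN45 call without ESRRG OE replicate 2 (0.0663) or 3 (0.0527) or control replicate 1 (0.102). MMP23B rose by 0.22 in AGS (adjusted p = 0.0317), a call that was lost without any 1 array other than ESRRG OE replicate 1 (adjusted p 0.0545 to 0.115). RECK, a membrane-anchored MMP inhibitor and the single gene tested of 3 other inhibitors, differed by 0.08 (SE 0.09) in AGS and -0.01 (SE 0.08) in MKN45 and did not pass in either line.

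In the rest of the plasminogen system 8 of 13 genes were tested in each line, of which 1 rose, 1 fell and 6 did not pass, or 25% called in each line beside 51.3% of all genes in AGS and 41.0% in MKN45. PLGRKT, a cell-surface plasminogen receptor, rose by 0.77 (SE 0.09, adjusted p = 2.24e-06 from limma) in AGS and by 0.86 (SE 0.11, adjusted p = 2.45e-05) in MKN45. VTN, vitronectin, a matrix protein that PLAUR binds, fell by 0.40 (SE 0.09, adjusted p = 0.00144 from limma) in AGS and by 1.09 (SE 0.08, adjusted p = 1.75e-07) in MKN45. Scaled to one median, the AGS fall of VTN did not pass (-0.25, adjusted p = 0.0642).

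Among the ADAM and ADAMTS proteases, relatives of the MMPs that shed cell-surface proteins or cleave matrix, 4 of 16 genes were tested in AGS and 5 in MKN45. ADAM9 rose in both lines, by 0.89 (SE 0.09, adjusted p = 6.38e-07 from limma) in AGS and by 0.65 (SE 0.11, adjusted p = 0.000392) in MKN45. ADAM17, the sheddase of TNF and of EGFR ligands, rose by 0.50 in AGS (SE 0.08, adjusted p = 0.000122 from limma) and differed by -0.06 (SE 0.07) in MKN45. ADAM10 rose by 0.50 in MKN45 (SE 0.10, adjusted p = 0.00159) and ADAM15 fell there by 0.37 (SE 0.07, adjusted p = 0.00139), a fall that was -0.08 and did not pass when scaled to one median (adjusted p = 0.666). With the own spread of each probe, ADAM9 and ADAM10 did not pass in MKN45 (adjusted p = 0.0510 and 0.0664).

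The pericellular serine proteases and their inhibitors were the list with the widest range of differences among the proteolysis lists. Of 15 tested, 9 rose and 2 fell in AGS, and 8 rose and 3 fell in MKN45, with 7 that rose in both lines and 2 that fell in both. The share called was 73.3% in each line, beside 51.3% of all genes in AGS and 41.0% in MKN45. Since the list was chosen with earlier results known, nothing is read from this share. TMPRSS2, a membrane-anchored serine protease of epithelia, rose 6.37-fold in AGS (difference 2.67, SE 0.09, adjusted p = 5.23e-12 from limma) and 5.98-fold in MKN45 (2.58, SE 0.08, adjusted p = 2.42e-11). KLK6, a secreted kallikrein, rose 2.57-fold in AGS (adjusted p = 1.02e-08) and 2.58-fold in MKN45 (adjusted p = 3.84e-08). KLK11, another kallikrein, was not detected on control arrays of either line, so it passed the filter only through the ESRRG OE group. It was at least 1.72-fold higher in ESRRG OE samples of AGS (adjusted p = 6.53e-07) and at least 2.24-fold higher in those of MKN45 (adjusted p = 2.57e-08). These p-values too belong to the fit on the measured values and do not test the bounds. KLK11 is among the rises counted in each line. Of the falls in MKN45, 1 that was named after its value was seen was that of the membrane serine protease TMPRSS4 (-0.20, adjusted p = 0.0498), which did not pass scaled to one median (0.379), nor without control replicate 3 (0.166) or ESRRG OE replicate 1 (0.113), 2 (0.134) or 3 (0.0916). The proprotein convertases PCSK7 and PCSK6 fell in both lines, by 0.52 (adjusted p = 0.000174) and 0.24 (adjusted p = 0.0295) in AGS and by 0.27 (adjusted p = 0.0220) and 0.26 (adjusted p = 0.0237) in MKN45. Scaled to one median, the fall of PCSK7 in AGS alone still passed, and PCSK7 in MKN45 was at 0.0039. PCSK7 in MKN45 also did not pass without ESRRG OE replicate 2 (adjusted p = 0.117) or 3 (0.0587) or control replicate 1 (0.0713) or 3 (0.0531). PCSK6 did not pass in AGS without ESRRG OE replicate 1 (0.124) or 2 (0.0769) or control replicate 3 (0.127), nor in MKN45 without ESRRG OE replicate 2 (0.0536) or 3 (0.0820) or control replicate 2 (0.0761).

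**Figure D3:**
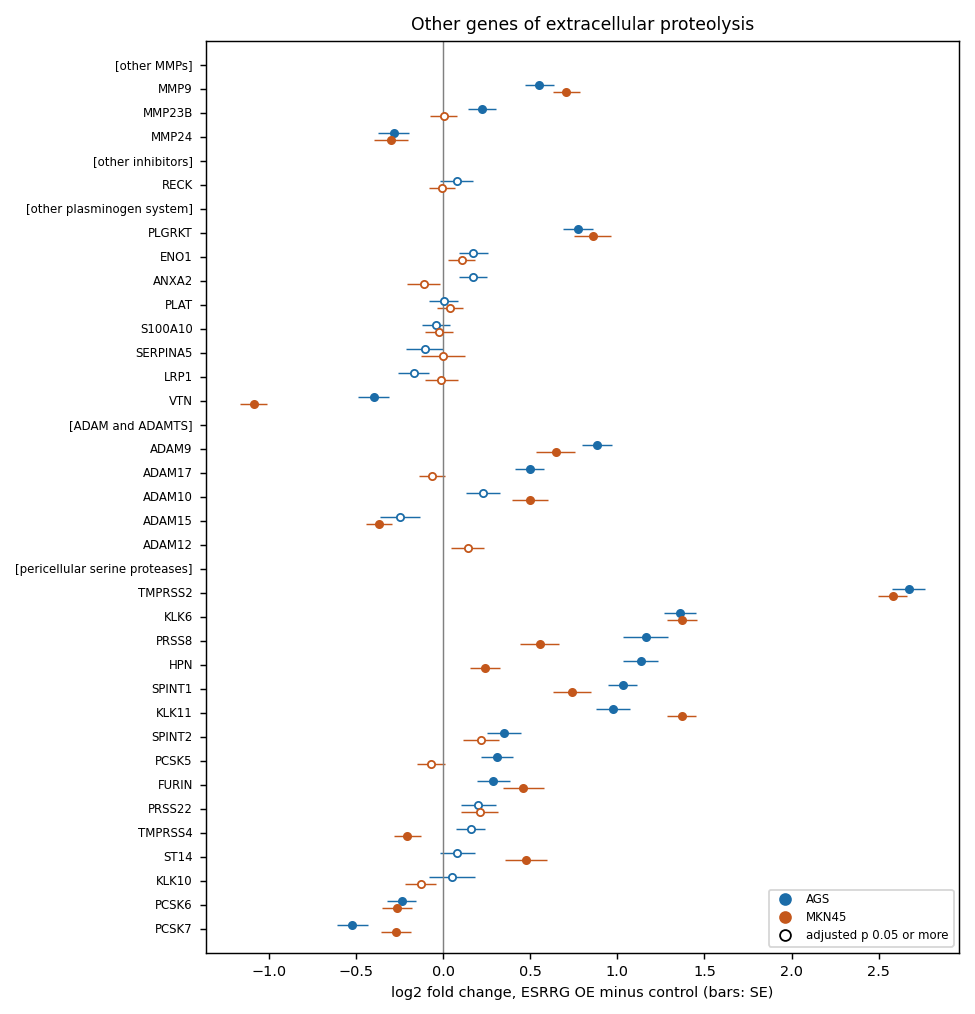
Difference between ESRRG OE and control samples (x axis, log2 fold change, bars are SE) for the other genes of extracellular proteolysis that passed the filter, by list, in AGS (blue) and MKN45 (orange). Filled points passed the adjusted threshold of 0.05 in limma and open points did not. TMPRSS2 stands apart at 2.67 and 2.58, and VTN in MKN45 at -1.09 is the lowest. MMP9 and KLK11 are drawn at their measured differences although no control array of either line detected them. For these genes the text gives only lower bounds.

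Of the cell-surface partners of PLAUR and the MMPs (integrins, EGFR, CD44, caveolin and basigin), 12 of 14 were tested in each line, of which 7 rose and 1 fell in AGS (beside 51.3% of all genes called) and 5 rose and 1 fell in MKN45 (beside 41.0%). The median difference was 0.42 in AGS and 0.18 in MKN45. EGFR, the epidermal growth factor receptor, which can signal together with PLAUR, rose 3.31-fold in AGS (difference 1.73, SE 0.10, adjusted p = 1.40e-09 from limma) and 2.09-fold in MKN45 (1.06, SE 0.11, adjusted p = 5.14e-06). ITGA2, a chain of the collagen receptor, rose by 1.46 in AGS (SE 0.09, adjusted p = 6.20e-09). In MKN45 it rose by 0.56 (SE 0.15, adjusted p = 0.00904), with overlapping groups. ITGA5, a chain of the fibronectin receptor, rose by 0.92 in MKN45 (SE 0.09, adjusted p = 3.52e-06) and by 1.33 in AGS (SE 0.10, adjusted p = 2.25e-08). ITGB5 fell by 0.25 in AGS (adjusted p = 0.0205) and CAV1, caveolin-1, by 0.28 in MKN45 (adjusted p = 0.0231). Neither of these falls passed when scaled to one median (adjusted p = 0.629 and 0.180). ITGB5 also did not pass without ESRRG OE replicate 1 (0.0634) or 2 (0.0511) or control replicate 1 (0.100), and CAV1 without ESRRG OE replicate 2 (0.0704) or 3 (0.0604) or control replicate 1 (0.0997) or 3 (0.0637).

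Of the matrix proteins that these proteases cut, 10 of 20 were tested in each line. In AGS 1 rose and 3 fell (40% called, beside 51.3% of all genes), and in MKN45 1 rose and 2 fell (30% called, beside 41.0%), with medians of -0.11 and -0.08. LAMB3, a laminin-332 chain, was the one that rose, by 1.13 (SE 0.09, adjusted p = 5.30e-08 from limma) in AGS and by 1.29 (SE 0.11, adjusted p = 8.56e-07) in MKN45. THBS1, thrombospondin-1, fell by 0.69 (SE 0.10, adjusted p = 3.50e-05) in AGS and by 0.78 (SE 0.11, adjusted p = 0.000103) in MKN45. LAMA5, a laminin chain of adult basement membranes, fell by 0.72 in AGS (SE 0.10, adjusted p = 1.27e-05) and differed by -0.11 (SE 0.10) in MKN45. The remaining falls, named after their values were seen, were HSPG2, the basement membrane proteoglycan perlecan, in AGS (-0.22, adjusted p = 0.0467) and the laminin chain LAMB1 in MKN45 (-0.27, adjusted p = 0.0430, groups overlapping). HSPG2 did not pass scaled to one median (0.340), nor without control replicate 1 (0.144) or 3 (0.0918) or ESRRG OE replicate 1 (0.204) or 2 (0.110). LAMB1 was at 0.06 scaled to one median and did not pass without control replicate 1 (0.153) or 3 (0.157) or ESRRG OE replicate 2 (0.163) or 3 (0.0806).

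The AP-1 and ETS factors, whose letters were searched in the promoters above, were tested as a list of 16, of which 14 passed the filter in AGS and 15 in MKN45. In AGS 8 rose and 1 fell (64.3% called, beside 51.3% of all genes), with a median of 0.52. In MKN45 8 rose and 2 fell (66.7% called, beside 41.0%), with a median of 0.26, while 6 rose in both lines. This list was also chosen with earlier results known, so nothing is read from these counts. FOS rose 3.39-fold in AGS (difference 1.76, SE 0.11, adjusted p = 6.50e-09 from limma) and 3.57-fold in MKN45 (1.84, SE 0.08, adjusted p = 4.68e-10). JUN rose by 1.33 in AGS (SE 0.08, adjusted p = 4.74e-09) and by 1.03 in MKN45 (SE 0.11, adjusted p = 8.12e-06). ATF3, a stress-responsive partner of JUN, rose by 1.39 in MKN45 (SE 0.08, adjusted p = 2.21e-08) and by 0.94 in AGS (SE 0.11, adjusted p = 4.05e-06). The falls were small. ELK1 fell by 0.25 in AGS (adjusted p = 0.0180), and ETS1 and FOSL1 fell by 0.26 (adjusted p = 0.0390) and 0.23 (adjusted p = 0.0459) in MKN45. Scaled to one median, ELK1 was at -0.05 (adjusted p = 0.697), ETS1 at 0.03 and FOSL1 at 0.05. Single arrays decided these calls too: ELK1 did not pass without ESRRG OE replicate 2 (adjusted p = 0.0855) or control replicate 3 (0.0714), ETS1 without ESRRG OE replicate 2 (0.0730) or 3 (0.160) or control replicate 2 (0.0521) or 3 (0.167), and FOSL1 without ESRRG OE replicate 2 (0.150) or 3 (0.154) or control replicate 1 (0.146) or 3 (0.0939).

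All 14 genes of a list of ERK output genes, which are known to follow the activity of this MAP kinase, passed the filter in both lines. In AGS 13 rose and 0 fell, beside 24.1% of all genes higher and 27.2% lower. In MKN45 11 rose and 0 fell, beside 20.1% higher and 20.9% lower, with 11 that rose in both. The list was chosen with earlier results of these data known, so nothing is read from these counts. The lowest difference in the list was 0.14 in AGS and 0.06 in MKN45, so at an unadjusted p under 0.05 the falls were 0 as well. ETV4 and ETV5 stand in this list and in that of the AP-1 and ETS factors. PHLDA1 rose 5.05-fold in AGS (difference 2.34, SE 0.08, adjusted p = 2.25e-12 from limma) and 2.37-fold in MKN45 (1.25, SE 0.09, adjusted p = 1.66e-07). DUSP4, a phosphatase that switches MAP kinases off, rose by 1.76 (SE 0.09, adjusted p = 8.15e-10) in AGS and by 1.34 (SE 0.08, adjusted p = 3.04e-08) in MKN45. EGR1, an immediate-early transcription factor, rose by 1.51 in MKN45 (SE 0.09, adjusted p = 1.72e-08) and by 1.45 in AGS (SE 0.11, adjusted p = 4.24e-08). The median of the list was 0.93 in AGS and 0.72 in MKN45.

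**Figure D4:**
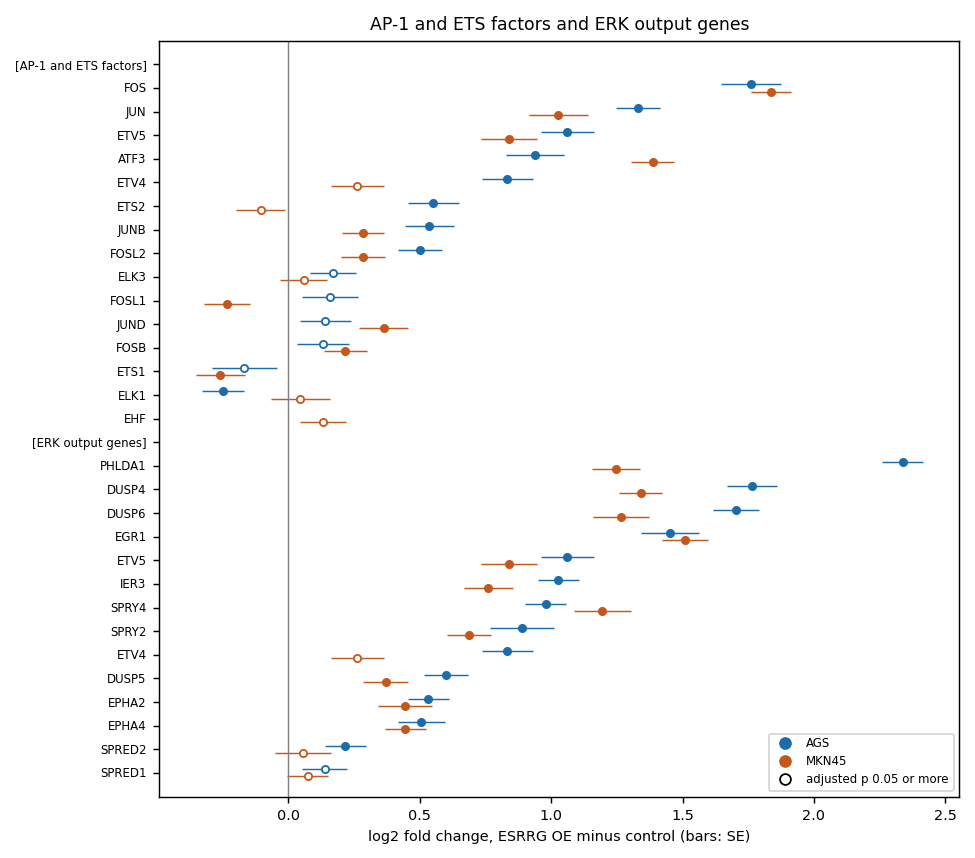
Difference between ESRRG OE and control samples (x axis, log2 fold change, bars are SE) for the AP-1 and ETS factors and the ERK output genes that passed the filter, in AGS (blue) and MKN45 (orange). Filled points passed the adjusted threshold of 0.05 in limma and open points did not. FOS lies at 1.76 and 1.84 and PHLDA1 at 2.34 in AGS, while no ERK output gene lies below 0.

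Whether the effect itself differed between the lines was tested as an interaction over all 12 arrays, which called 11.7% of 11563 genes. Of the other proteolysis genes 6 were called (HPN, VTN, ADAM17, TMPRSS4, PRSS8 and PCSK5), as were 2 surface partners, 1 matrix protein, 3 AP-1 or ETS factors and 3 ERK output genes, with ETV4 counted in the last 2 lists. In that order, these lists had 32, 12, 10, 15 and 14 genes tested in MKN45. The lists were chosen with earlier results known, so nothing is read from these counts. The surface partners were EGFR and ITGA2 and the matrix protein was LAMA5, while the factors were ATF3, ETS2 and ETV4 and the ERK output genes PHLDA1, DUSP4 and ETV4. HPN, hepsin, a membrane serine protease, had the largest difference of the 6. It rose by 1.13 in AGS (SE 0.10, adjusted p = 2.03e-07 from limma) and by 0.24 in MKN45 (SE 0.09, adjusted p = 0.0393), so that the effect was 0.89 higher in AGS (SE 0.14, adjusted p = 0.000327). PRSS8, prostasin, rose by 1.16 in AGS (adjusted p = 2.28e-06) and by 0.55 in MKN45 (adjusted p = 0.00113), a difference of 0.61 (adjusted p = 0.0395). PCSK5, a proprotein convertase, rose by 0.31 in AGS (adjusted p = 0.00973) and differed by -0.07 in MKN45 (adjusted p = 0.516), a difference of 0.38 (adjusted p = 0.0448). HPN, PRSS8 and PCSK5 were named after their values were seen, and the calls of the last 2 were lost in most alternatives. The effect on VTN was 0.69 higher in AGS than in MKN45 (SE 0.12, adjusted p = 0.000735 from limma), that on ADAM17 was 0.56 higher (SE 0.10, adjusted p = 0.00165) and that on EGFR was 0.66 higher (SE 0.16, adjusted p = 0.00882). Scaled to one median, none of these 3 passed (adjusted p = 0.0888, 0.0643 and 0.170), nor did EGFR with the own spread of each probe (0.0841). TMPRSS2, KLK6 and FOS had differences between the lines of 0.09, -0.01 and -0.08 (SE 0.13, 0.13 and 0.14), which did not pass.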

How the data were processed

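GenomeStudio is the tool named in the submitters' processing notes, with no version. What the authors deposited is, first, the raw intensity of every probe (linear scale, nothing subtracted, not normalized), whose lowest value was 69.7 and whose array medians were 98.43 to 136.9. Second, the authors deposited detection p-values, which set each probe against the negative control probes on its array. Last, the authors deposited log2 values that their methods describe as quantile normalized with limma. Repeating this normalization on the intensities gave the same values to within 5e-04.

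Gene names came from the platform annotation (30113 probes with 1 symbol, 8 with several, which were left unused, and 17202 not named). Identifiers of 20020 of the 20046 genes were found in RefSeq's table for GRCh38.p14, which served for names and gene order, and 0 symbols changed. For the 6691 genes with several probes, the probe brightest over the 12 arrays was used. A gene entered the test in a line if that probe had a detection p-value under 0.05 on 3 or more of the line's 6 arrays. ESRRG OE and control samples were compared within each line by lmFit and eBayes (limma 3.58.1, R 4.3.3), and the lines by the interaction term over all 12 arrays, with Benjamini-Hochberg adjustment over all genes at a threshold of 0.05. This test stands in for the random variance test of the study's methods. The code was tested on simulated data. Where no control array detected a gene, its fold was computed as a lower bound: on each control array the probe's value was raised to the lowest value among detected probes if it lay below it. The number of arrays limits the precision.

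The 9 genes and the other lists were chosen with earlier results of these data known. From each list and line, the text names at most 2 genes that rose most and 2 that fell most, out of those that passed with no overlap between groups. The genes most like a member were the 2 with the smallest root mean square difference. Samples with the same replicate number did not regularly deviate together, so no block was used in the main fit. As alternatives, the intensities were background corrected (neqc, offset 16), scaled to one median, quantile normalized by line or replaced by the deposited log2 values. The detection filter was dropped or tightened to a p-value under 0.01, probes of a gene were averaged, all arrays were fitted together, the own spread of each probe or a replicate block was used, and each array was left out in turn.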

Additional observations from a re-analysis of the deposited data

Results flagged for a closer look

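For 14 genes of the lists the effect of ESRRG OE differed between the lines by the interaction test of limma, with values given here as the log2 fold change in AGS minus that in MKN45. Over all genes the test called 11.7% of 11563, and nothing is read from the number of list genes called. PHLDA1 differed by 1.09 (adjusted p = 4.69e-06) and passed in all 21 alternatives run (highest adjusted p 0.00699). HPN differed by 0.89 (adjusted p = 0.000327) and also passed in all 21 (highest adjusted p 0.0200). VTN, which fell in both lines, differed by 0.69 (adjusted p = 0.000735), ADAM17 by 0.56 (adjusted p = 0.00165) and LAMA5 by -0.61 (adjusted p = 0.00788), and each passed in 20 of 21 alternatives. The exception was scaling to one median for VTN (adjusted p = 0.0888) and ADAM17 (0.0643), and the own spread of each probe for LAMA5 (0.0653). EGFR differed by 0.66 (adjusted p = 0.00882), passing in 19 of 21 alternatives with a highest adjusted p of 0.170, and ITGA2 by 0.91 (adjusted p = 0.00490), passing in 18 with a highest adjusted p of 0.128. DUSP4 differed by 0.42 (adjusted p = 0.0334) and passed in 9 of 21 alternatives (adjusted p 0.00976 to 0.438). It did not pass without ESRRG OE replicate 2 (0.0691) or 3 (0.0620) or control replicate 1 (0.0509) or 3 (0.0899) of AGS, nor without ESRRG OE replicate 1 (0.0772) or 2 (0.0523) or control replicate 1 (0.0750) or 2 (0.0527) of MKN45. ATF3 differed by -0.45 (adjusted p = 0.0486) and passed in 6 of 21 (adjusted p 0.0233 to 0.155). It did not pass without ESRRG OE replicate 1 (0.135) or 2 (0.0834) or control replicate 1 (0.136) or 2 (0.0511) of AGS, nor without ESRRG OE replicate 1 (0.0919), 2 (0.0566) or 3 (0.0932) or control replicate 2 (0.0726) or 3 (0.110) of MKN45. The other 5 were ETS2, ETV4, TMPRSS4, PRSS8 and PCSK5. ETS2 differed by 0.66 (adjusted p = 0.00441) and passed in 19 of 21, the exceptions being scaling to one median (0.102) and the own spread of each probe (0.0505). ETV4 differed by 0.57 (adjusted p = 0.0153) and passed in 17 of 21 (highest adjusted p 0.0985), not passing without ESRRG OE replicate 1 of AGS (0.0509). TMPRSS4 differed by 0.36 (adjusted p = 0.0382) and passed in 12 of 21 (adjusted p 0.0156 to 0.134). It did not pass without ESRRG OE replicate 1 (0.104) or 2 (0.0937) or control replicate 1 (0.0640) or 3 (0.0762) of AGS, nor without ESRRG OE replicate 1 (0.0742), 2 (0.0745) or 3 (0.0592) or control replicate 3 (0.0965) of MKN45. PRSS8 differed by 0.61 (adjusted p = 0.0395) and passed in 8 of 21 (adjusted p 0.0132 to 0.252). It did not pass without ESRRG OE replicate 1 (0.0665) or 2 (0.120) or control replicate 3 (0.104) of AGS, nor without ESRRG OE replicate 1 (0.0627) or 3 (0.0994) or control replicate 1 (0.0513) or 3 (0.106) of MKN45. PCSK5 differed by 0.38 (adjusted p = 0.0448) and passed in 9 of 21 (adjusted p 0.0243 to 0.331). It did not pass without ESRRG OE replicate 1 (0.125) or 2 (0.0767) or control replicate 1 (0.108) or 2 (0.0823) of AGS, nor without ESRRG OE replicate 1 (0.114) or 2 (0.0704) or control replicate 1 (0.0712) or 2 (0.0840) of MKN45.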

How the results depend on the processing

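Of the values for the 13 probes of the 9 genes, all 156 with 1 array left out stayed within 1 SD, and of 110 under the other alternatives 68 did and 42 moved further, 18 each with background correction and with scaling to one median. Scaling to one median shifted the median of all genes to 0.10 in AGS and 0.16 in MKN45, against -0.02 and -0.01, and the share of calls that were higher in ESRRG OE samples to 70.7% in AGS and 88.7% in MKN45, against 47.0% and 49.1%. Under it PCSK7 (0.0039), ETS1 (0.0259), FOSL1 (0.0462) and LAMB1 (0.0586) turned positive in MKN45, as did TIMP2 on its brighter probe (0.15), all of them below that shift. With the own spread of each probe, 3049 genes passed in MKN45 in place of 4609, 689 in place of 1355 for the interaction, and 8 of the other proteolysis genes in MKN45 in place of 18. For the interaction 890 genes passed with background correction and 381 with scaling to one median. The other alternatives that kept all arrays left these counts within 1.5 times, and the causes were not tested. With 1 array left out, 4806 to 5352 genes passed in AGS, 3426 to 4558 in MKN45 and 884 to 1437 for the interaction (884 without ESRRG OE replicate 2 of AGS, the one count here past 1.5 times), and 15 to 18 other proteolysis genes passed in AGS and 13 to 17 in MKN45. Of the named list genes' values, 423 kept their call, 43 lost it and 4 changed sign under the alternatives, and 233 kept it and 49 lost it with 1 array left out.

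Same-numbered samples of a line correlated in their deviations at -0.11, 0.26 and -0.02 in AGS and at 0.24, 0.004 and -0.02 in MKN45. Only for replicate 2 of AGS and replicate 1 of MKN45 was this above the highest correlation with another number (-0.04 and 0.04). So few correlations cannot exclude a pairing. With the replicate number as a block 5743 genes passed in AGS, 4799 in MKN45 and 1452 for the interaction, with 19 and 17 other proteolysis genes. Under the block the interactions of ATF3 (adjusted p = 0.0627) and PCSK5 (0.0614) and the fall of TMPRSS4 in MKN45 (0.0572) did not pass. Low signal limits PLAU in all groups and MMP10, MMP9 and KLK11 in controls. MMP7, MMP14 and the PLAUR probe ILMN_1691508 were detected but lay near the lowest detected levels of the arrays (6.96 to 7.01 log2 units). Their differences may thus be understated. MMP9 and KLK11 were not detected in the controls of either line, and MMP10 was not detected in those of AGS alone.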
